A study of Mus musculus with 6 samples.

Results

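The genes described here are 30 genes of the liver and yolk sac endoderm: proteins that these cells secrete into plasma, the receptors with which yolk sac endoderm takes protein up, and transcription factors of the endoderm. They were chosen by name, each represented by the transcript cluster, the array's unit for a gene, annotated to it alone, and no filter on intensity was set. The choice was made with earlier results of these data known, so counts over the genes are descriptions. Of the 30, 24 had such a cluster, 1 each, out of 14860 genes with one. *Gc*, *Apob*, *Apoc2*, *Cubn* and *Lrp2* had none, and *Apoa1* had only a cluster shared with *Tcea1*, so these 6 were given no value.

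The 3 mutant arrays came from *Mesp1*Cre/+; *Hic2* FL/FL embryos and the 3 wildtype arrays from embryos labelled *Mesp1*+/+; *Hic2* FL/FL, so by the labels both genotypes carried the floxed *Hic2* alleles. The study's methods also count *Hic2* FL/+ embryos without Cre as wildtype. Each array held RNA of a pool of 4 to 6 whole hearts at E9.5, with their blood. Cre is expressed from the *Mesp1* locus, which is active in early mesoderm, and replaces 1 copy of *Mesp1*. Cre-only embryos were not analysed here. In bulk samples such as these pools, a difference in the number of cells of a type and a difference in RNA per cell cannot be told apart. The labelled tissue was evident on all arrays, since the median of 11 cardiomyocyte markers was 12.66, 12.65 and 12.63 in mutant pools, against 12.79, 12.66 and 12.74 in wildtype pools. All levels are log2 values after RMA, a normalisation that gives the arrays a common distribution of probe values, and a level may be compared between arrays but not between clusters.

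The visceral endoderm of the yolk sac makes the plasma proteins of the early mouse embryo before the liver does. The liver bud arises from foregut endoderm next to the heart, and its hepatoblasts switch on *Alb* and *Afp* as they are specified. In both tissues these genes are read under the control of factors of the HNF1, HNF4 and FOXA families. Heart muscle, endocardium and blood cells are not typical sources of albumin or fibrinogen.

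The genes were not evenly distributed over the pools. Mutant replicate 3 was the highest of all 6 arrays for 18 of the 24, against 14.2% of all genes. Wildtype replicate 1 was the highest for 4, *Rbp4*, *Apoa4*, *Amn* and *Dab2*, a smaller share than the 34.6% of all genes. The median level of the 24 was 6.21, 5.85 and 7.89 in mutant replicates 1, 2 and 3, against 6.10, 5.82 and 5.83 in wildtype replicates 1, 2 and 3. The array with the high median was a mutant one, and the other 5 lay close together.

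**Figure D1:**
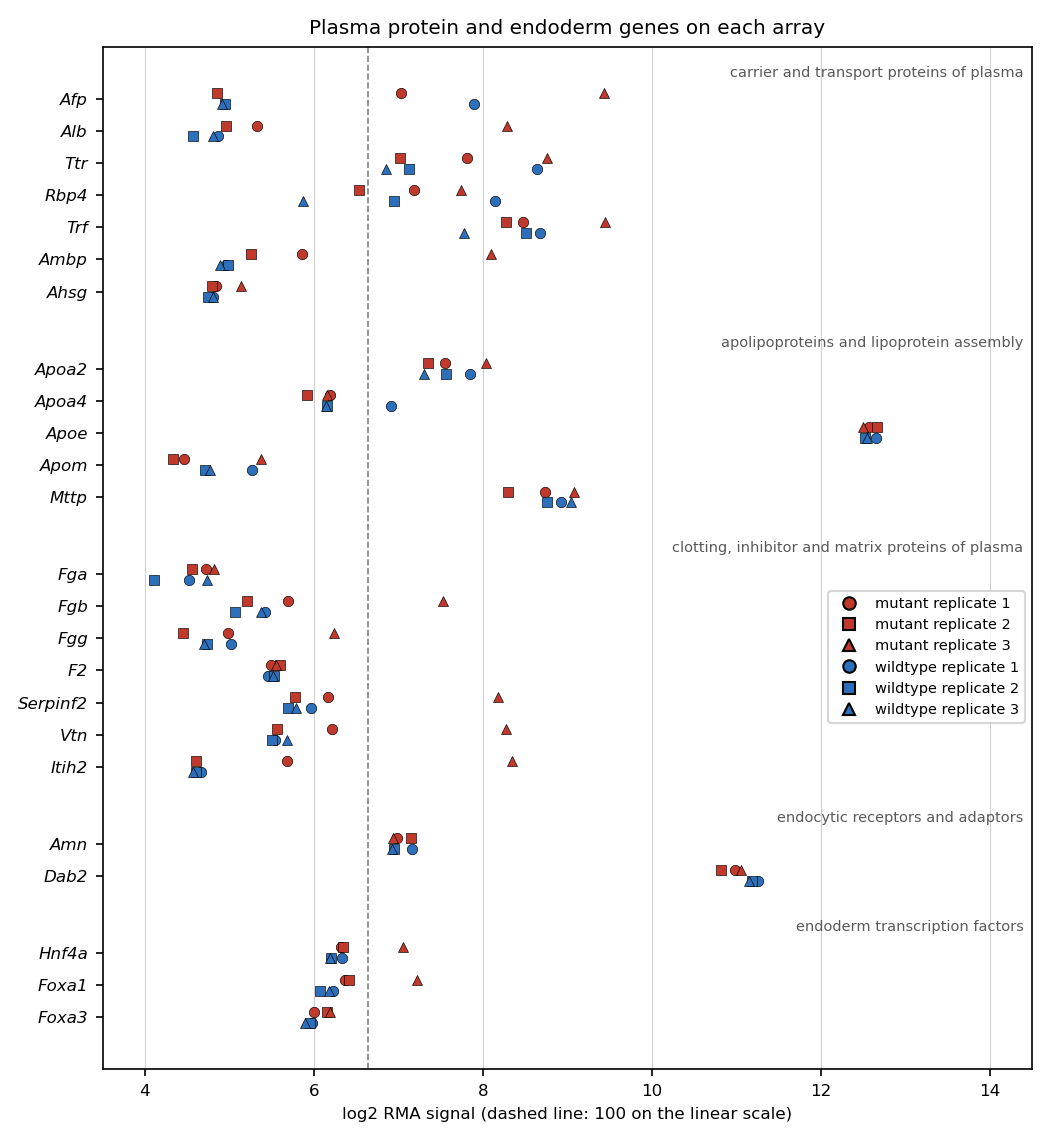
Log2 RMA signal (horizontal axis) of each of the 24 genes with a cluster of its own on the 6 arrays, in 5 groups by role, with mutant pools in red above wildtype pools in blue and the symbol giving the replicate. *Alb*, *Ambp*, *Fgb*, *Serpinf2*, *Vtn* and *Itih2* each have 1 array far to the right, mutant replicate 3, while *Afp* and *Ttr* are also high on wildtype replicate 1.

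The 95th percentile of 718 olfactory receptor clusters, which was between 5.94 and 6.18 on the 6 arrays, is used here as a gauge of the background. The gauge comes from other clusters with other probes, so it is only a rough guide to the background of a given gene's cluster. Folds against the gauge, also those given as at least a value, are therefore approximate. All 3 wildtype values were below it for 10 of the 24 genes, *Alb*, *Ambp*, *Ahsg*, *Apom*, *Fga*, *Fgb*, *Fgg*, *F2*, *Vtn* and *Itih2*, and all 3 mutant values for 4 of these. A fold against a value below the gauge is a ratio of signals that may hold little of the transcript, and it is given beside the fold against the gauge itself.

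Among the carrier proteins, mutant replicate 3 was the highest array for albumin, *Ambp* and *Afp*, but *Afp* was also high on other arrays. *Alb*, the main carrier protein of adult plasma, was at 5.33, 4.96 and 8.28 in mutant replicates 1, 2 and 3, against 4.87, 4.57 and 4.80 in wildtype replicates 1, 2 and 3. The signal of mutant replicate 3 was 7.77-fold that of the next mutant, the largest such excess of the 14860 genes. The other 5 values of *Alb* were below the gauge, and against the gauge of the next mutants the fold was at least 4.41. *Ambp*, the precursor of alpha-1-microglobulin and of the protease inhibitor bikunin, was at 5.86, 5.26 and 8.10 in mutant pools, against 4.96, 4.98 and 4.90 in wildtype pools. The 3 wildtype values of *Ambp* lay close together and below every mutant value, but only mutant replicate 3 was above the gauge.

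*Afp*, alpha-fetoprotein, the albumin-like protein of foetal plasma, was at 7.03, 4.86 and 9.44 in mutant pools, against 7.89, 4.95 and 4.91 in wildtype pools. High and low arrays occurred in both genotypes: mutant replicates 1 and 3 and wildtype replicate 1 were high, and the other 3 arrays lay between 4.86 and 4.95. Of all genes, *Afp* had the largest excess on wildtype replicate 1, where its signal was 7.68-fold that of the next wildtype and at least 3.29-fold the gauge of the other wildtypes. It had the third largest excess on mutant replicate 3, at 5.32-fold the next mutant, which was itself above the gauge. *Alb* and *Afp* are neighbours on chromosome 5 with 0 protein-coding genes between them, yet wildtype replicate 1 was set apart by *Afp* alone of the pair.

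The other carriers with a high value on wildtype replicate 1 were those of thyroid hormone and retinol. *Ttr*, transthyretin, was at 7.82, 7.02 and 8.76 in mutant pools, against 8.64, 7.13 and 6.86 in wildtype pools. *Rbp4*, the plasma retinol-binding protein that travels in a complex with transthyretin, was at 7.19, 6.54 and 7.75 in mutant pools, against 8.14, 6.95 and 5.87 in wildtype pools. For both genes the genotypes overlapped, with wildtype replicate 1 at 2.86-fold the next wildtype for *Ttr* and 2.28-fold for *Rbp4*. *Trf*, transferrin, the iron carrier, was at 8.48, 8.28 and 9.44 in mutant pools, against 8.68, 8.51 and 7.78 in wildtype pools. *Ahsg*, fetuin-A, spanned only 4.75 to 5.14 over all arrays. All 6 values of *Ahsg* were below the gauge.

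Windows around the start sites of 5 genes that were high on mutant replicate 3 are shown for the sites of hepatic factors in them. They are RefSeq sequences of build GRCm38.p6, from 250 bases before the start site to 50 after it, 5′ to 3′ on the gene's own strand. Capitals mark matches to the core of the HNF1 site, GTTAAT, or to FOXA sites, TGTTTAC or TGTTTGC, on either strand.
Alb (chr5:90460620-90460919, plus strand): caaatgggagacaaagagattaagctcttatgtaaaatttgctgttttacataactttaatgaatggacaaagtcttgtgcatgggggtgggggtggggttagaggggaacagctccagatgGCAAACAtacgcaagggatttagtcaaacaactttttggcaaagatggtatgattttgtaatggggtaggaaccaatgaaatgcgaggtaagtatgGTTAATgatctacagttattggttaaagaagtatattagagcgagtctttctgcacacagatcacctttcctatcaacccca
Afp (chr5:90490464-90490763, plus strand): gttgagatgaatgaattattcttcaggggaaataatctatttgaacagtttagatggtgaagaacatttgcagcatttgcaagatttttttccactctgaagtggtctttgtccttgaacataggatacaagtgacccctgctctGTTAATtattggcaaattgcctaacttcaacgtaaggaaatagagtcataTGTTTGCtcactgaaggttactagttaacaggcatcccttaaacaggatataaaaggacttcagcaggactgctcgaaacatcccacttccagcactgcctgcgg
Fgb (chr3:83049814-83050113, minus strand): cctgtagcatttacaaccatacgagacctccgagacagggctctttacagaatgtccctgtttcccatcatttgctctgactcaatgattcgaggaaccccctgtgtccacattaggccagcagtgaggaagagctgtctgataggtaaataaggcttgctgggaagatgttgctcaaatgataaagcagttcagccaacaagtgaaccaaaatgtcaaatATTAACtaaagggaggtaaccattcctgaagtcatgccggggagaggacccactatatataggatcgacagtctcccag
Vtn (chr11:78498870-78499169, plus strand): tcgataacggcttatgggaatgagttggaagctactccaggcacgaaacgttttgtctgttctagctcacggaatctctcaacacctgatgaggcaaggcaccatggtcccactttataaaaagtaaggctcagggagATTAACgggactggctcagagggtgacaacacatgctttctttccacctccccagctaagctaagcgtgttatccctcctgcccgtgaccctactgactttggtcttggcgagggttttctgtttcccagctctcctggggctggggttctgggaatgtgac
Ambp (chr4:63154123-63154422, minus strand): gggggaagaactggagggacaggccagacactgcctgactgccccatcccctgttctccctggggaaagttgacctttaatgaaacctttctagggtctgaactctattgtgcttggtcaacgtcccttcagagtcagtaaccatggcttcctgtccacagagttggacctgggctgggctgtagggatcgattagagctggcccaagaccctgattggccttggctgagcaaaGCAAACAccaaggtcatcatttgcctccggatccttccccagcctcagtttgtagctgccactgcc

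In the windows of *Alb* and *Afp* both kinds of match were present. In *Alb* the HNF1 match began at position -32 and the FOXA match at -128 from the start site, while in *Afp* the HNF1 match was the more distant, at -105, and the FOXA match lay at -55. *Fgb* and *Vtn* held an HNF1 match, at -29 and -112, and *Ambp* a FOXA match at -16. RefSeq windows were found for 28 of the 30 genes, all but *Ttr* and *Trf*. The HNF1 core was present in 11 of them (39.3%), against 8.24% of 27025 genes, and a FOXA match in 10 (35.7%), against 9.47%. The HNF4 sequence CAAAGTCC was in 0 of 28 and in 1.63% of all genes, and the TATA sequence TATAAA was in 7 of 28, against 15.7%. Both were searched on either strand, and none of the motifs contains another. Of the 8 genes more than 1 above the next mutant on mutant replicate 3, 4 held the HNF1 core and 3 a FOXA match, while *Itih2*, *Serpinf2* and *Fgg* held neither. Among the 14 other genes with a cluster and a window, 5 held the HNF1 core and 5 a FOXA match. The matches thus did not clearly set the 8 apart. A match of letters is a description of the window and not a measured site.

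Among the clotting factors, inhibitors and matrix proteins of plasma, 5 of 7 genes had a signal more than 1 above the next mutant (log2) on mutant replicate 3, and none of the 7 was raised by as much on wildtype replicate 1. *Itih2*, a heavy chain that is joined to bikunin, the product of *Ambp*, was at 5.68, 4.61 and 8.35 in mutant pools, against 4.66, 4.60 and 4.57 in wildtype pools. Mutant replicate 1 also stood above the 3 wildtypes, and mutant replicate 2 fell within their range, but all of these values were below the gauge. *Vtn*, vitronectin, an adhesive protein of plasma and matrix, was at 6.21, 5.57 and 8.28 in mutant pools, against 5.55, 5.50 and 5.68 in wildtype pools. *Serpinf2*, the inhibitor of plasmin, was at 6.17, 5.78 and 8.18 in mutant pools, against 5.97, 5.69 and 5.79 in wildtype pools. For *Vtn* and *Serpinf2* the next mutant was above the gauge, and mutant replicate 3 was 4.18-fold and 4.04-fold higher, while for *Itih2* the fold was 6.34 against the next mutant and at least 4.59 against the gauge. In each of these 3 genes the order of the mutants was the same, replicate 3, then 1, then 2, and replicate 2 was at the level of the wildtypes. Replicate 2 was below the gauge in all 3 genes, and replicate 1 in *Itih2*, so the order of these 2 may be one of background signal.

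Fibrinogen is assembled from an alpha, a beta and a gamma chain, which are encoded by adjacent genes, and these did not share 1 pattern. *Fgb*, the beta chain, was at 5.69, 5.21 and 7.53 in mutant pools, against 5.42, 5.07 and 5.37 in wildtype pools. *Fgg*, the gamma chain, was at 4.99, 4.45 and 6.25 in mutant pools, against 5.02, 4.74 and 4.70 in wildtype pools. *Fga*, the alpha chain, was at 4.73, 4.55 and 4.82 in mutant pools, against 4.53, 4.11 and 4.73 in wildtype pools. The excess of mutant replicate 3 over the next mutant was 1.84 for *Fgb* and 1.26 for *Fgg*, but 0.09 for *Fga*. The next mutants were below the gauge, against which mutant replicate 3 was at least 2.61-fold higher for *Fgb* but only 1.07-fold for *Fgg*. The cluster of *Fga*, like that of *F2*, prothrombin, was below the olfactory receptor gauge on all arrays, so a difference in its transcript may not have been measurable. *F2* spanned only 5.45 to 5.60.

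The apolipoproteins, which carry lipid in plasma, showed smaller differences between arrays. *Apoa2*, of high-density lipoprotein, was at 7.55, 7.35 and 8.04 in mutant pools, against 7.85, 7.57 and 7.30 in wildtype pools. *Apoa4*, made in yolk sac, liver and gut, was at 6.20, 5.92 and 6.16 in mutant pools, against 6.92, 6.16 and 6.15 in wildtype pools. *Apoa4* was thus set apart on wildtype replicate 1, by 0.76 over the next wildtype, and not on mutant replicate 3. *Apom*, which binds sphingosine-1-phosphate, was at 4.46, 4.34 and 5.38 in mutant pools, against 5.27, 4.71 and 4.77 in wildtype pools, all below the gauge. *Mttp*, which loads lipid onto apolipoprotein B, spanned 8.30 to 9.08 over all arrays. *Apoe*, which is also made by macrophages and many other cells, was the most even of the group, between 12.50 and 12.66.

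The endocytic genes did not vary with the plasma proteins. *Amn*, amnionless, anchors the receptor cubilin in yolk sac and kidney, and it lay between 6.92 and 7.16 over all arrays. *Dab2*, a clathrin adaptor of megalin that is also present in mesodermal cells, was at 10.98, 10.82 and 11.06 in mutant pools, against 11.25, 11.19 and 11.15 in wildtype pools. All mutant values of *Dab2* were below all wildtype values.

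The 3 transcription factors were highest on mutant replicate 3, but *Foxa3* by only 0.03 over the next mutant. *Foxa1*, a pioneer factor of endoderm, was at 6.37, 6.42 and 7.22 in mutant pools, against 6.23, 6.07 and 6.17 in wildtype pools. *Hnf4a*, a nuclear receptor that maintains hepatocyte and visceral endoderm genes, was at 6.32, 6.34 and 7.05 in mutant pools, against 6.33, 6.20 and 6.20 in wildtype pools. For both, mutant replicates 1 and 2 lay close together and mutant replicate 3 was 1.75-fold above the next mutant for *Foxa1* and 1.63-fold for *Hnf4a*. *Foxa3*, the FOXA factor of hepatocytes, was at 6.01, 6.16 and 6.19 in mutant pools, against 5.98, 5.95 and 5.90 in wildtype pools. The mutant and wildtype values did not overlap for *Foxa1* or *Foxa3*, and those of *Hnf4a* did. All values of *Foxa3* lay close to the gauge, and 1 wildtype value was below it.

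The 2 arrays were next set against all genes. On mutant replicate 3, 25 genes (0.168%) were more than 1 above the next mutant, and 8 of these were among the 24: *Alb*, *Itih2*, *Afp*, *Ambp*, *Vtn*, *Serpinf2*, *Fgb* and *Fgg*, which held ranks 1, 2, 3, 4, 6, 7, 9 and 14. For 5 of the 8, *Alb*, *Itih2*, *Ambp*, *Fgb* and *Fgg*, the next mutant was below the gauge, so their order by signal is not an order by transcript. *Trf*, *Ttr* and *Apom* came next, at 0.96, 0.95 and 0.91. On wildtype replicate 1, 9 genes (0.0606%) were more than 1 above the next wildtype, of which *Afp*, *Ttr* and *Rbp4* held ranks 1, 3 and 6, and *Apoa4* was at rank 20. The 20 most raised genes of each of the other 4 arrays held 0 of the 24. *Afp* is the only gene of the 24 that was more than 1 above the next array on both. Wildtype replicate 1 was the highest wildtype for 19 of the 24, against 50.8% of all genes, but for 11 after the arrays were centred on their medians, so its lead was slight in many of them.

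**Figure D2:**
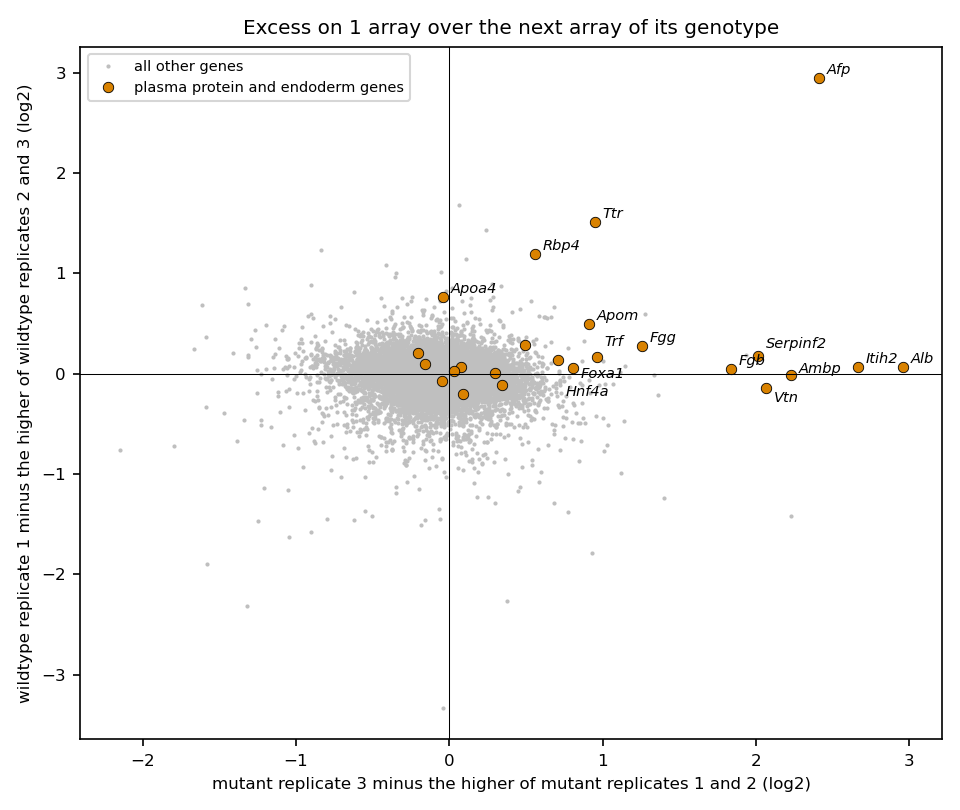
Each point is a gene, with the log2 excess of mutant replicate 3 over the higher of mutant replicates 1 and 2 on the horizontal axis and that of wildtype replicate 1 over the higher of wildtype replicates 2 and 3 on the vertical axis. Orange points are the 24 plasma protein and endoderm genes, grey points are all other genes, and *Alb*, *Itih2* and *Ambp* lie far to the right near 0 on the vertical axis, while *Afp* lies at 2.41 and 2.94.

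Mutant and wildtype were then compared with limma, a linear model with variances moderated over all genes, across 16015 clusters annotated to at least 1 gene. Of the 24 genes, 0 passed an adjusted p of 0.05 in either direction, against 0.0437% of all clusters higher and 0% lower. At an unadjusted p under 0.05, *Ambp* and *Foxa1* were higher (background 1.91%) and *Dab2* was lower (background 4.96%). These counts moved with single arrays, with 0 higher without wildtype replicate 1 or 2 and 7 higher without mutant replicate 2, and with 3 lower, *Apom*, *Mttp* and *Dab2*, without mutant replicate 3. The methods' t-test likewise gave an adjusted count of 0, with *Foxa3* higher and *Dab2* lower before adjustment. The genotypes did not overlap in 4 genes that were higher in mutant, *Alb*, *Ambp*, *Foxa1* and *Foxa3* (background 3.38%), and in 1 that was lower, *Dab2* (background 7.89%). The mutant mean was above the wildtype mean in 19 of the 24, against 35.7% of all genes. The median difference was 0.28, against -0.05 over all genes.

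The 3 largest differences were 1.60 ± 0.806 for *Itih2*, 1.46 ± 0.628 for *Ambp* and 1.44 ± 0.767 for *Alb* (log2, mutant minus wildtype, ± standard error, 3 arrays each), all with an adjusted p of 0.694 in limma. All wildtype values of these 3 genes were below the gauge, so the sizes have no firm order. With each wildtype value raised to its array's gauge, the mutant mean was 1.14-fold higher for *Itih2*, 1.31-fold for *Ambp* and 1.13-fold for *Alb*. These folds are no lower bounds for the transcripts. Mutant replicates 1 and 2 were also below the gauge in these genes and were not raised to it. The spread lay in the mutants. *Itih2* averaged 6.21 ± 1.93 in mutant pools and 4.61 ± 0.047 in wildtype pools, and *Alb* 6.19 ± 1.82 and 4.75 ± 0.158 (SD, n = 3 each). *Afp* differed by 1.19 ± 1.19 (adjusted p = 0.792), and it varied in both genotypes, at 7.11 ± 2.29 in mutant pools and 5.92 ± 1.71 in wildtype pools (SD, n = 3 each). *Vtn*, *Serpinf2* and *Fgb* differed by 1.11 ± 0.596, 0.89 ± 0.546 and 0.86 ± 0.521, with adjusted p of 0.694, 0.702 and 0.702. Further down, *Foxa1* differed by 0.51 ± 0.217 and *Dab2* by -0.24 ± 0.097, both with an adjusted p of 0.694. *Ttr*, *Rbp4* and *Trf* differed by 0.32 ± 0.547, 0.17 ± 0.542 and 0.41 ± 0.337, each less than the spread of its own arrays.

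How far these differences rested on mutant replicate 3 was measured by leaving that array out. A mean higher in mutant by more than 1.5-fold was found for 7 of the 24 genes, out of 80 of all genes (0.538%): *Afp*, *Alb*, *Ambp*, *Fgb*, *Serpinf2*, *Vtn* and *Itih2*. Without mutant replicate 3, 1 of the 24 remained, *Ambp* at 0.61, although 97 of all genes were then higher by more than 1.5-fold. The differences were 0.39 for *Alb*, 0.53 for *Itih2*, 0.31 for *Vtn*, 0.17 for *Fgb*, 0.16 for *Serpinf2* and 0.02 for *Afp*, and the median of the 24 was 0.05. Their mean stayed higher in mutant for 16 of 24, and the adjusted p of *Ambp* was 0.268, the lowest of any of the genes under any alternative. With wildtype replicate 1 left out as well, an alternative chosen after seeing the data, *Afp* was at 1.01 and *Ambp* at 0.62, and 0 of the 24 passed the adjusted threshold. Without mutant replicate 2, the lowest mutant for most of these genes, 11 of the 24 were higher by more than 1.5-fold.

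**Figure D3:**
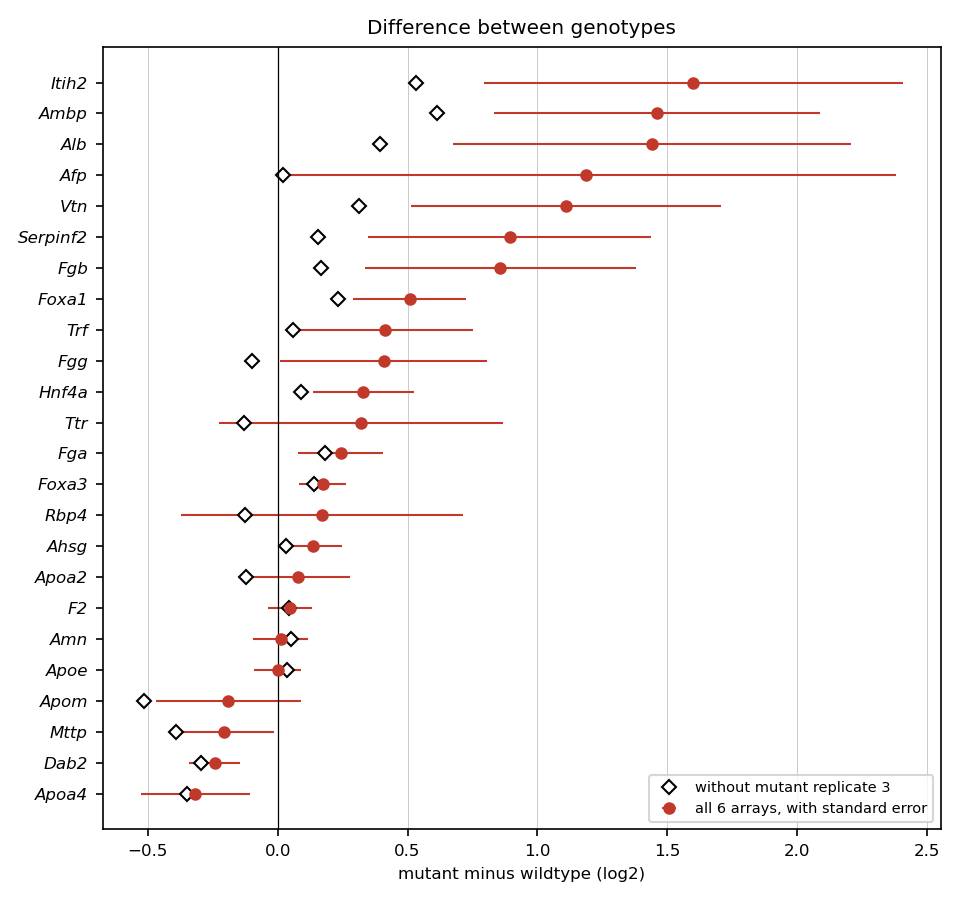
Mutant minus wildtype (log2, horizontal axis) for each of the 24 genes, from limma with its standard error on all 6 arrays (red circles) and without mutant replicate 3 (open diamonds). The difference of *Itih2* is 1.60 with all arrays and 0.53 without mutant replicate 3, and that of *Afp* is 1.19 and 0.02.

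A pair of clusters that passed the adjusted threshold kept their differences without that pool. The shared cluster of *Hbb-b1* and *Hbb-b2*, adult beta globins, was higher in mutant by 3.74, and by 3.72 without mutant replicate 3, and *Ckm*, muscle creatine kinase, by 2.75 and 2.89. *Hic2* itself was at 8.27, 8.23 and 8.37 in mutant pools, against 9.35, 9.36 and 8.91 in wildtype pools (adjusted p = 0.228), and the 3 mutants lay close together. These clusters are not among the 24.

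Lists of other genes were read on the same arrays. Of 40 other liver and yolk sac endoderm genes, 32 had a cluster, and 0 of them were more than 1 above the next mutant on mutant replicate 3. Only 6 of the 32 passed the methods' filter, and the list median lay between 5.37 and 5.60 on the arrays, below the gauge. A difference in many of these transcripts may thus not have been measurable. The mean was higher in mutant for 14 of the 32 and lower for 18, against 35.7% of all genes higher. The median difference was -0.02, against -0.05 over all genes. Mutant replicate 3 was the highest array for 9 (14.2% of all genes) and wildtype replicate 1 for 11 (34.6% of all genes). The one nearest to the plasma proteins was *Serpind1*, heparin cofactor II, at 4.89, 4.64 and 5.81 in mutant pools, against 4.60, 4.67 and 4.59 in wildtype pools, all below the gauge. *Cpn1*, above the gauge on all arrays, was at 7.91, 7.50 and 8.58 in mutant pools, against 8.24, 7.93 and 7.91 in wildtype pools. Of 14 regulators of endoderm and hepatoblasts, 5 were higher and 9 lower in mean. *Nr5a2*, a nuclear receptor of endoderm, was at 5.67, 5.37 and 6.39 in mutant pools, against 5.65, 5.64 and 5.25 in wildtype pools. At an unadjusted p under 0.05, 0 of the 14 regulators differed, and of the 32 genes 1 was lower, *Slc13a4*, a sulphate transporter. The background was 1.91% higher and 4.96% lower.

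Markers of neighbouring tissues moved in part with mutant replicate 3. The median of 16 foregut and pharyngeal epithelium genes was 6.49, 6.49 and 6.87 in mutant pools, against 6.56, 6.23 and 6.60 in wildtype pools. *Epcam*, an epithelial adhesion protein, was at 5.70, 5.22 and 7.03 in mutant pools, against 5.80, 5.59 and 5.82 in wildtype pools. *Cldn6*, a tight junction protein of embryonic epithelia, was at 6.49, 6.52 and 7.80 in mutant pools, against 6.95, 6.12 and 6.36 in wildtype pools. Both were among the 20 genes most raised on mutant replicate 3. Of the 16 genes, 9 were highest on that array, against 14.2% of all genes, and 7 were not. *Krt19*, an epithelial keratin chosen after its values were seen, was at 11.01, 11.12 and 10.25 in mutant pools, against 10.91, 10.64 and 10.30 in wildtype pools, lowest on mutant replicate 3. The median of 24 erythroid genes other than globins, which come from blood, was 8.86, 8.64 and 9.28 in mutant pools, against 8.51, 8.16 and 7.72 in wildtype pools, also highest on mutant replicate 3. Unlike the plasma proteins, all 3 mutants were above all 3 wildtypes in this list. The median of 13 proepicardium and septum transversum genes was 8.57, 7.70 and 8.64 in mutant pools, against 8.43, 8.62 and 8.38 in wildtype pools. The part of each of these tissues in the levels of the 24 genes was not tested.

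**Figure D4:**
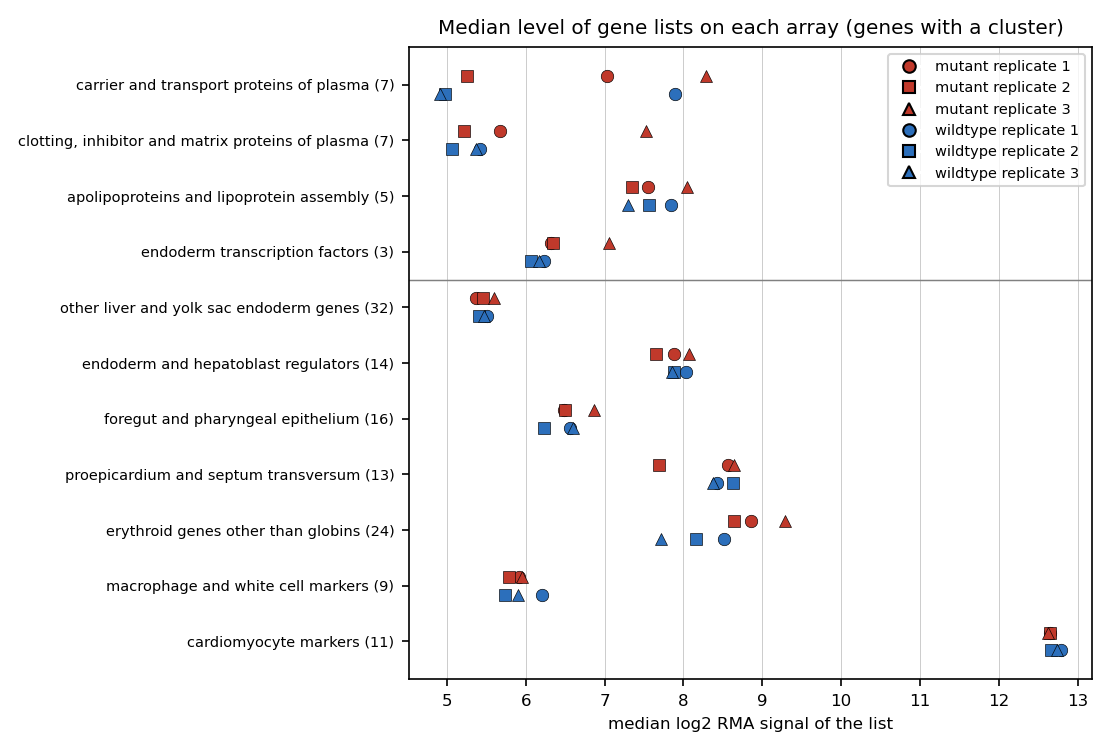
Median log2 RMA signal (horizontal axis) of each gene list on the 6 arrays, with the number of genes that have a cluster in parentheses, mutant pools in red above wildtype pools in blue and the symbol giving the replicate. The carrier list is at 7.03, 5.26 and 8.28 in mutant pools, against 7.89, 4.98 and 4.91 in wildtype pools, while the cardiomyocyte list stays between 12.63 and 12.79.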

How the data were processed

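RNA of 6 pools of E9.5 hearts was hybridised to Affymetrix Mouse Exon 1.0 ST arrays, 3 per genotype, and the pools are described as independent biological replicates. The authors used RMA in the Affymetrix Expression Console to turn probe signals into 1 log2 value for each core gene prediction, and these deposited values were used unchanged. Its version and the genome build were not given in the sources used here.

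Of 23332 clusters, 14996 named 1 gene, 1019 named several and 7317 named no gene, and the 16015 with a gene were fitted with limma 3.58.1 in R 4.3.3 (lmFit, eBayes) as mutant minus wildtype, and p-values were adjusted by Benjamini-Hochberg, with a threshold of 0.05. The genes and lists were chosen with earlier results of these data known, and counts over them are descriptions. All 30 genes are named. From other lists, up to 4 genes by p and up to 4 by excess on 1 array could be named, and of the genes most raised on 1 array those in the top 20.

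An excess is a value minus the higher of the other 2 arrays of its genotype. The methods' filter, a linear mean over 100 in the higher genotype, kept 10439 clusters, 15 of the 24 genes among them, of which *Alb*, *Ambp*, *Serpinf2*, *Vtn*, *Itih2* and *Foxa1* passed through the mutant mean alone. It was not applied, so low clusters near background remain. The fit was tested on simulated data, with normal noise of the same variance in both genotypes. That test does not cover genes whose spread differs between genotypes, such as *Itih2* and *Alb*. Promoter windows were searched with Python 3.11.15, and figures were drawn with matplotlib 3.10.9. The number of arrays limits the precision.

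Alternatives were 2 intensity filters, clusters without a gene, the methods' t-test, robust variances, an intensity trend, median centring, quantile normalisation, cyclic loess, a replicate block and each array left out.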

Additional observations from a re-analysis of the deposited data

How the results depend on the processing

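No gene of the 24 passed an adjusted p of 0.05 under any alternative run. Of 408 differences of single genes under the alternatives, 390 kept their direction and side of the threshold and 18 changed sign. Many of the 390 could not change sign. The filters, clusters without a gene, the t-test, the trend, robust variances, the replicate block and the mean of clusters leave the difference itself unchanged. Leaving out 1 array moved *Ttr* between -0.13 and 0.87, *Rbp4* between -0.39 and 0.75, *Apoa2* between -0.12 and 0.23, *Fgg* between -0.10 and 0.80, *Apom* between -0.52 and 0.0028, *Amn* between -0.050 and 0.085 and *Apoe* between -0.043 and 0.037. *Apoe* was also positive under quantile normalisation (0.0087), cyclic loess (0.022) and without mutant replicate 3 and wildtype replicate 1 (0.075), where *Fgg* was at -0.00068 and *Amn* at 0.13.

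Leaving out 1 array gave 0 to 7 genes higher and 0 to 3 lower at an unadjusted p under 0.05, 15 to 20 with a higher mutant mean, a median difference of 0.05 to 0.46, and 1 to 3 clusters of the whole table higher at an adjusted p under 0.05, against 7 with all arrays. The unadjusted count of higher genes was 7 without mutant replicate 2, 1 without wildtype replicate 3 and 0 without wildtype replicate 1 or 2, and that of lower genes was 3 without mutant replicate 3 and 0 without mutant replicate 1 or 2 or wildtype replicate 1 or 2. The unadjusted count of 2 higher became 0 with the filter on the mean of all arrays, with clusters without a gene, and under quantile normalisation and cyclic loess, and 1 with the methods' t-test, robust variances and median centring. The unadjusted count of 1 lower became 0 with clusters without a gene and under cyclic loess. Over the whole table, clusters without a gene left 1 adjusted call, the methods' t-test 0, and leaving out mutant replicate 3 and wildtype replicate 1 together 1.

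The filters act by leaving genes out. With the methods' filter 12 of 15 genes had a higher mutant mean. Among them, *Alb*, *Ambp*, *Serpinf2*, *Vtn*, *Itih2* and *Foxa1* passed through the mutant mean alone. The filter itself thus favoured a higher mutant mean, and the count is no independent result. With a mean of all arrays over 100, 9 genes were left, of which 6 had a higher mutant mean, 5 were highest on mutant replicate 3, 8 had wildtype replicate 1 as the highest wildtype, and 1 was more than 1 above the next mutant. Median centring changed the count with wildtype replicate 1 highest of the wildtypes to 11.

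Replicate numbers were not taken as pairs, since they are not described as such. In deviations from the genotype means over the clusters fitted, same-numbered arrays correlated at 0.25, 0.01 and 0.29. Mutant replicates 1 and 3 correlated best with their own number, and 2 with wildtype replicate 1 (0.05). This held over clusters passing the methods' filter, at 0.31, 0.14 and 0.46, with the exception at 0.23. The sizes thus depend on the filter. With a replicate block, 5 genes were higher and 0 lower at an unadjusted p under 0.05, and 2 clusters of the whole table passed the adjusted threshold. The cause was not tested for any of these changes other than those of the filters.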

Other observations

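A different set of genes was shared by another combination of pools, mutant replicates 1 and 3 and wildtype replicate 3. *Prl8a2*, a prolactin-family gene of the decidua, was at 6.84, 4.21 and 6.80 in mutant replicates 1, 2 and 3, against 4.41, 4.31 and 7.74 in wildtype replicates 1, 2 and 3. *Prap1*, a proline-rich acidic protein of the uterus and gut, was at 8.73, 5.26 and 7.41 in mutant pools, against 5.91, 5.18 and 8.23 in wildtype pools. *Guca2b*, uroguanylin, was at 9.42, 6.75 and 7.84 in mutant pools, against 6.45, 6.52 and 8.35 in wildtype pools. *Erv3* was at 6.80, 5.66 and 7.18 in mutant pools, against 5.45, 5.48 and 7.71 in wildtype pools.

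For each of these 4 genes the same 3 arrays were the highest, and wildtype replicate 1, which was high for *Afp*, *Ttr* and *Rbp4*, was not one of them. Wildtype replicate 3 had 17 genes more than 1 above the next wildtype, and these 4 were its most raised. They were picked after their values were seen, and their adjusted p between genotypes in limma lay between 0.745 and 0.910.

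Among the genes most raised on mutant replicate 3 that are in none of the lists, *Serpina6*, the corticosteroid-binding globulin of plasma, was at 4.78, 3.87 and 6.71 in mutant pools, against 4.06, 3.87 and 3.82 in wildtype pools. As for *Alb*, the value on mutant replicate 3 was the only one above the background gauge. *Serpina6* was picked after its values were seen. *Gzmd*, also in none of the lists, had a larger excess on that array, 2.23 against 1.93. Further unlisted genes among the 20 most raised there were *Gpr50*, *Bmp4*, *Sfrp1*, *Gulo* and *Neto2*, among others.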
